A study of Homo sapiens with 2 samples.

Results

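The regions described here are the SOX9 peaks of human chromosome 17 in VCaP cells, 517 of the 7547 peaks that chromatin immunoprecipitation and sequencing (ChIP-seq) gave for SOX9. They were selected by chromosome alone, as all peaks placed on chromosome 17 of the genome build hg18. VCaP is an established human cell line from prostate cancer, positive for the TMPRSS2-ERG fusion, with a high basal level of SOX9. The data were 1 peak list from chromatin precipitated with a SOX9 antibody (Millipore AB5535) and 1 from input chromatin kept before precipitation, both from cells grown in DMEM with serum and no other treatment named in the labels. The labels name no clone, passage or separate cultures. With 1 library in each group there is no replicate error and no test between groups, the read depth is unknown, and intervals cover counting error over peaks only.

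SOX9 is a transcription factor that binds DNA through an HMG box and is known for its roles in cartilage, testis and epithelial progenitor cells, including those of the prostate. Its own gene lies on the long arm of chromosome 17 in a large gene desert, in which distant enhancers of SOX9 are spread on both sides. AXIN2, on the same arm, encodes a scaffold protein of the β-catenin destruction complex, and its transcription is a widely used readout of WNT signalling. The study's title places SOX9 in WNT pathway activation, so the peaks around these genes were examined first. Their approximate hg18 positions, near the middle of the window from 67 to 68 Mb for SOX9 and near the end of the window from 60 to 61 Mb for AXIN2, were given with the definition of this set and were not read from an annotation.

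No SOX9 peak was called at the SOX9 gene itself, and the sequence on both sides of it was free of peaks over a long distance. The nearest peak on the left was at chr17:65677126-65677371 (246 bp, score 9.07), about 1.9 Mb from the gene. The nearest on the right was at chr17:68099463-68099728 (266 bp, score 5.89), about 0.50 Mb away. The score is the authors' own value for each peak, its measure is not stated, and it is used here only for order within this list, in which the median was 7.94. The peak-free stretch between these peaks spanned 2.42 Mb and ranked 2 among the 516 gaps between neighbouring peaks of the chromosome. Stretches of this length were not rare elsewhere, since 192 of 7515 gaps on nuclear chromosomes (2.55%) were as long or longer. The input list also had 0 peaks there.

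The windows from 66 to 69 Mb, which hold SOX9, contained 4 peaks (1.33 per Mb, exact Poisson 95% interval 0.363 to 3.41), all of them beyond 68 Mb. A pair lay 155 bp apart, formed by the right-hand neighbour named above and a 767 bp peak at chr17:68099884-68100650 with a score of 9.02. The strongest of the 4 was 1508 bp wide, at chr17:68672342-68673849, with a score of 36.4, and ranked 1073 in the whole list. The last, at chr17:68818555-68818797, scored 3.11 and had the minimum width in the list, 243 bp. The windows from 66 to 68 Mb were empty, and a count of 0 in a window allows up to 3.69 peaks. In the RefSeq gene table for GRCh38.p14, the neighbouring protein-coding genes of SOX9 are KCNJ2, which encodes a potassium channel, and SLC39A11, which encodes a zinc transporter. Which gene any of these peaks lies in or near was not analysed here.

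At AXIN2 the picture was different, with peaks close to the position taken for the gene but of low score. A pair of peaks lay about 27 kb to the right of the position taken for AXIN2. The left member was at chr17:60987245-60987547 (303 bp, score 6.90) and the right member at chr17:60987708-60987950 (243 bp, score 3.11), with 160 bp between them. They ranked 4181 and 6908 (tied) among the 7547 peaks, so both scored below the list median. AXIN2 is 33.1 kb long in the GRCh38.p14 table, more than the distance between the pair and the position taken for the gene. Whether the pair lies inside the gene, and in an exon, an intron or a promoter, was not analysed here.

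The windows from 60 to 62 Mb held 6 peaks in all (3.00 per Mb, interval 1.10 to 6.53). Left of the pair were peaks at chr17:60204789-60205595 (score 4.92), chr17:60207846-60208142 (score 3.64) and chr17:60345918-60346426 (score 3.62), and a gap of 641 kb separated the last of these from the pair. To the right, the next peak was at chr17:61729505-61730091 with a score of 4.70. None of the 6 reached the list median score, and 0 of 6 (Clopper-Pearson interval 0 to 45.9%) belonged to the 1007 highest-scoring peaks of the list, a set of 1000 enlarged by ties. Among the 39 windows of 1 Mb on the chromosome with at least 5 peaks, the window from 60 to 61 Mb had the lowest median score, 3.64. That median rests on 5 peaks, and the next lowest, 3.73 over 6 peaks from 74 to 75 Mb, was close to it. RGS9 and CEP112 are the protein-coding neighbours of AXIN2 in the gene table.

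**Figure D1:**
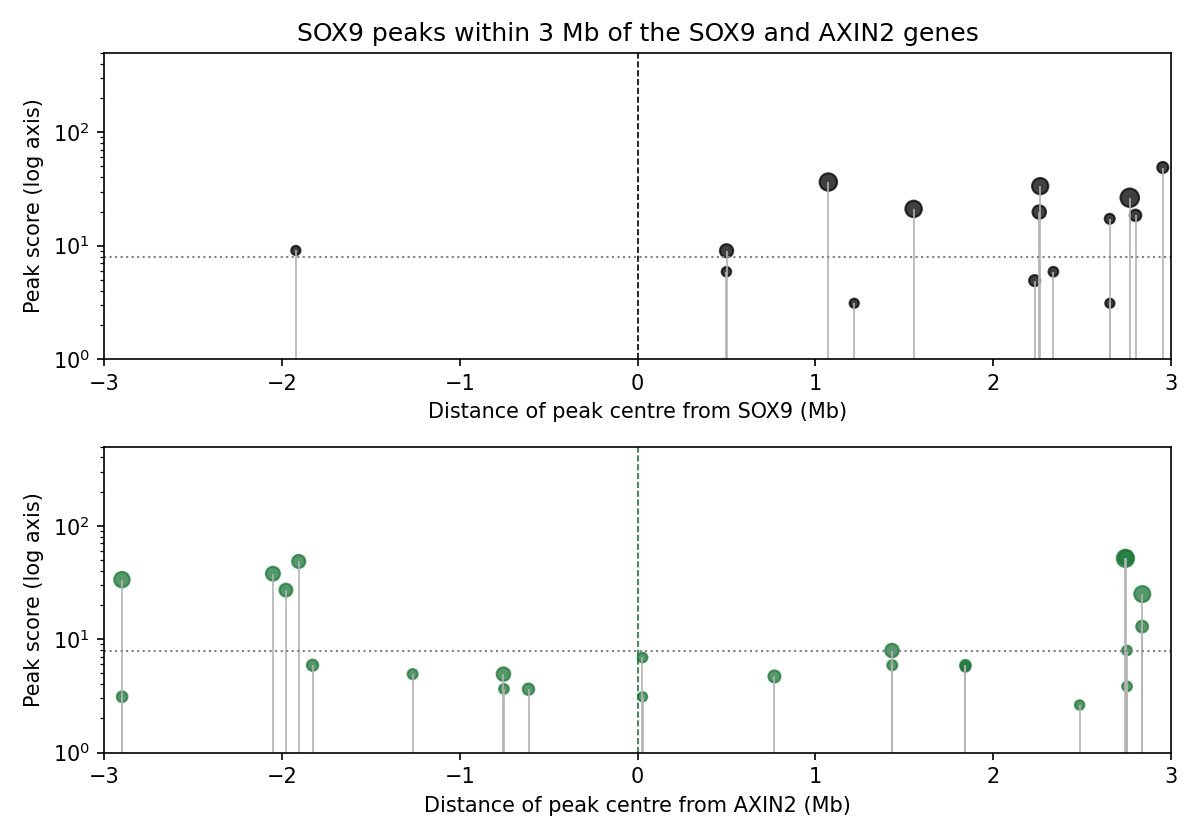
Peak score (log axis) against the distance of the peak centre from SOX9 (top) and from AXIN2 (bottom) in Mb, for peaks within 3 Mb. Each point is 1 peak, its area grows with the width, and the dotted line marks the list median score of 7.94. The top panel is empty from about 1.9 Mb left to 0.50 Mb right of SOX9. The AXIN2 panel has a pair of points below the dotted line, next to the position taken for AXIN2.

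Stronger peaks lay further to the right, between AXIN2 and SOX9. There, 4 peaks formed a cluster, the term used here for a run of at least 3 peaks whose gaps do not exceed 10 kb, at chr17:63703590-63713858, with a median score of 29.8 and a highest score of 52.3. Of its 4 peaks, 2 were among the 1007 highest-scoring of the list. It was the 1 cluster of the whole stretch from 47 to 69 Mb, which contains both genes.

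Along the chromosome, peaks were concentrated towards both ends and between 31 and 47 Mb, with sparse stretches between. Chromosome 17 had 6.57 peaks per Mb (6.02 to 7.17), a density exceeded only by chromosome 19 with 8.37 (7.68 to 9.11). The number of copies of each region in VCaP was not measured, and densities are not corrected for it. Over the 79 windows of 1 Mb the median was 4 peaks, 6 windows were empty and 12 held 15 or more. The 10 fullest windows contained 183 of the 517 peaks (35.4%, interval 31.3 to 39.7%). These windows were chosen by the same counts, so their share exceeds an even spread by construction, and the interval does not cover that choice. The variance of the count between windows was 36.97, against a mean of 6.54.

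Contiguous segments, with bounds set after the counts had been seen, summarise this profile. The first 3 Mb of the short arm held 35 peaks (11.7 per Mb, 8.13 to 16.2), including 18 in the window from 1 to 2 Mb. The next 13 Mb held 31 (2.38 per Mb, 1.62 to 3.38). From 16 to 31 Mb there were 96 (6.40 per Mb, 5.18 to 7.82), and from 31 to 47 Mb there were 166 (10.4 per Mb, 8.86 to 12.1). The stretch from 47 to 69 Mb fell to 52 peaks in 22 Mb (2.36 per Mb, 1.77 to 3.10). It was followed by 38 peaks from 69 to 73 Mb (9.50 per Mb, 6.72 to 13.0) and by 99 from 73 Mb to the last peak (17.6 per Mb, 14.3 to 21.4).

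**Figure D2:**
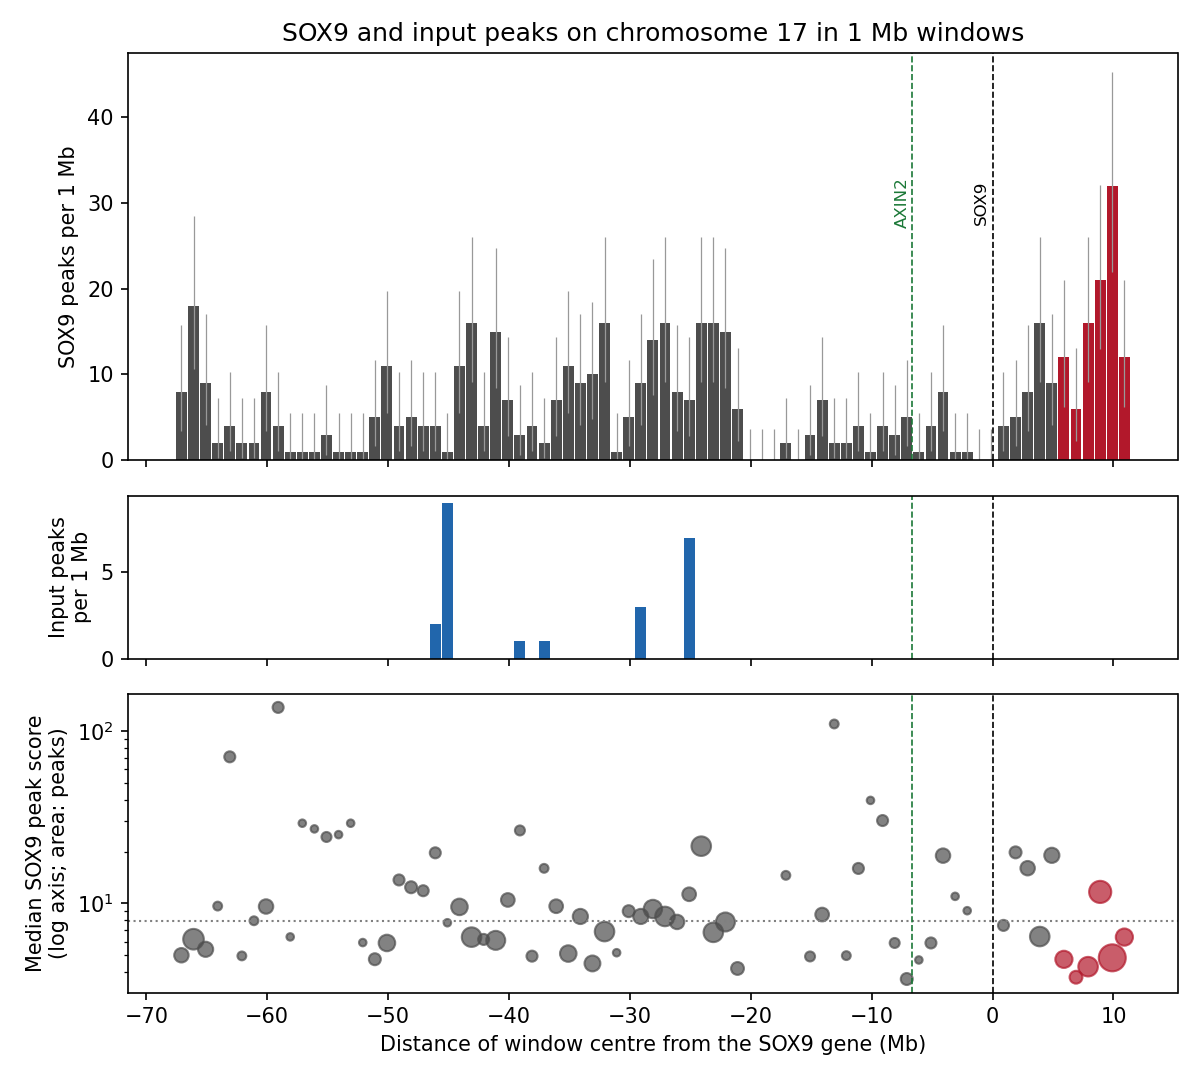
SOX9 peaks (top, with exact Poisson 95% intervals) and input peaks (middle) in windows of 1 Mb, and the median score of the SOX9 peaks in each window (bottom, log axis, point area growing with the number of peaks), against the distance of the window centre from SOX9 in Mb. Red marks distal 17q25, dashed lines mark SOX9 and AXIN2, and the dotted line is the list median score of 7.94. The highest bar, 32 peaks, lies about 10 Mb right of SOX9, and SOX9 itself stands in an empty window.

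The sparse stretch around AXIN2 and SOX9 was low in number but not in score. Its 52 peaks had a median score of 7.95, against 7.94 for the 366 peaks of the chromosome outside it and outside distal 17q25. Of the 52, 11 (21.2%, 11.1 to 34.7%) were among the 1007 highest-scoring peaks, which made up 13.3% of the list. Of these 11, 8 lay from 47 to 60 Mb and 3 from 62 to 66 Mb. The windows of AXIN2, from 60 to 62 Mb, had 0 of them and a median score of 4.17. Those of SOX9, from 66 to 69 Mb, also had 0, with a median score of 7.45. The emptiest part of the stretch was at the left edge, where no peak was called between 46377084 and 50670778, a gap of 4.29 Mb and the longest of the chromosome. Input had 0 peaks in that gap and 0 in all windows from 47 Mb onward.

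Among the better filled windows, score and number showed little relation. Over the 39 windows with at least 5 peaks, Spearman's rho between the number of peaks and their median score was -0.11, and that with the median width was -0.087. These are descriptions across windows that share 1 library. The 34 windows with 1 to 4 peaks were left out, so the relation over the full range of counts was not measured. Some thinly filled windows had strong peaks. The 4 peaks from 8 to 9 Mb had a median score of 138, and the 4 from 4 to 5 Mb a median of 71.0, and in each case 3 of the 4 were among the 1007 highest-scoring. Among windows with 5 or more peaks the highest median, 21.5, was found from 43 to 44 Mb, where 12 of 16 peaks scored at or above the list median.

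Distal 17q25, taken here as the windows from 73 Mb to the last peak at 78.6 Mb, was the densest part of the chromosome. Its 99 peaks were 19.1% of the 517 (15.8 to 22.8%), and their density of 17.6 per Mb compared with 5.73 (5.19 to 6.30) on the remaining 73 Mb, a ratio of 3.07. The fullest windows of the chromosome were those from 77 to 78 Mb with 32 peaks (21.9 to 45.2), from 76 to 77 Mb with 21 (13.0 to 32.1) and, at the opposite end, from 1 to 2 Mb with 18 (10.7 to 28.4). Among the 1 Mb windows of all nuclear chromosomes, 5 held more than 32 peaks, 4 of them on chromosome 11 and 1 on chromosome 19.

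The distal peaks had a lower median score than the rest of the chromosome, with some of the strongest peaks among them. Their median score was 4.92, against 7.94, and 37 of 99 (37.4%, 27.9 to 47.7%) reached the list median, compared with 211 of 418 (50.5%, 45.6 to 55.4%) on the rest of the chromosome and 51.7% of the whole list. They were narrower too, with a median of 347 bp against 407.5 bp. At the upper end, 17 of the 99 (17.2%, 10.3 to 26.1%) were among the 1007 highest-scoring peaks, compared with 62 of 418 (14.8%, 11.6 to 18.6%). The separate intervals of the segments overlap for both shares, that at or above the list median and that among the highest-scoring. Such overlap does not decide whether the shares differ, and no test of the difference was made. The 3 strongest were at chr17:76827185-76827884 (700 bp, score 290), chr17:77649753-77650234 (482 bp, score 246) and chr17:78249622-78250353 (732 bp, score 199).

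**Figure D3:**
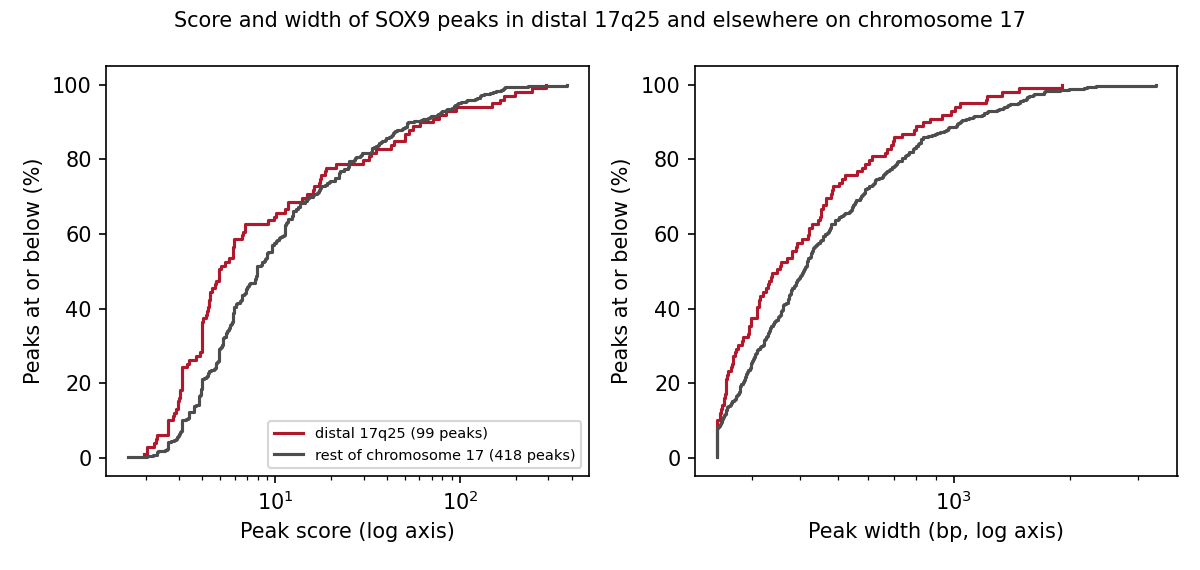
Share of peaks at or below a given score (left) and width in bp (right), both on log axes, for the 99 peaks of distal 17q25 (red) and the 418 peaks on the rest of chromosome 17 (grey). The red curve lies above the grey one at low scores, with medians of 4.92 and 7.94, and they run together at high scores.

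Taken as a set, the 517 peaks scored much like those of the other chromosomes. Their median score was 7.71 (quartiles 4.27 and 20.98), against 7.95 for the 7030 other peaks, and the order-statistic 95% intervals of these medians, 6.56 to 8.62 and 7.94 to 8.46, overlapped. On chromosome 19, the median was 9.84 (8.62 to 11.8). Of the chromosome 17 peaks, 79 (15.3%, 12.3 to 18.7%) were among the 1007 highest-scoring, against 13.3% of the list and 113 of 534 (21.2%, 17.8 to 24.9%) on chromosome 19. Median width was 398 bp, compared with 414 bp elsewhere. At least 1000 bp wide were 54 peaks (10.4%, against 10.7% of the list), and at the minimum width of 243 bp were 43 (8.32%, against 7.91%). These shares were near those of the list. Score and width rose together across the 517 peaks (Spearman's rho = 0.70, a description within 1 library).

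The 10 strongest peaks of the chromosome lay on both sides of the sparse stretch. The highest score, 377, was at chr17:45221267-45221863 and ranked 7 in the list. After it came the strongest 2 of distal 17q25, then 2 broad peaks less than 1 Mb apart, at chr17:35772194-35774078 (1885 bp, score 235) and chr17:35014980-35016975 (1996 bp, score 233). The third distal peak ranked 6 on the chromosome. The others were at chr17:8474637-8475326 (score 174), chr17:17816375-17816917 (score 172), chr17:78009515-78010549 (score 172) and chr17:23392214-23393263 (score 170). Thus 4 of the 10 lay in distal 17q25, and none lay between 47 and 69 Mb. The widest peaks were at chr17:71582013-71585351 (3339 bp, score 95.5), chr17:71890460-71893438 (2979 bp, score 43.5) and chr17:28642403-28644739 (2337 bp, score 104). The first pair of these lay in a single window, from 71 to 72 Mb.

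The spacing of neighbouring peaks ranged from 54 bp to the 4.29 Mb gap. The median gap on chromosome 17 was 58.5 kb, against 117 kb over the other nuclear chromosomes and 43.7 kb on chromosome 19. Gaps under 1 kb numbered 82 of 516 (15.9%, 12.8 to 19.3%), with a median of 205 bp, against 12.7% of the gaps on all nuclear chromosomes. A neighbour within 1 kb was found for 150 peaks (29.0%, 25.1 to 33.1%), compared with 23.7% of the list, 23.3% (22.3 to 24.3%) of peaks on all other chromosomes and 16.9% (13.8 to 20.3%) on the denser chromosome 19. The intervals treat peaks as independent, which close neighbours are not, and no test was made. Peaks with such a neighbour had a median score of 5.89, against 7.94 for the 367 without. Whether close neighbours are parts of 1 enriched region was not tested. Merging peaks within 500 bp left 450 regions on the chromosome.

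**Figure D4:**
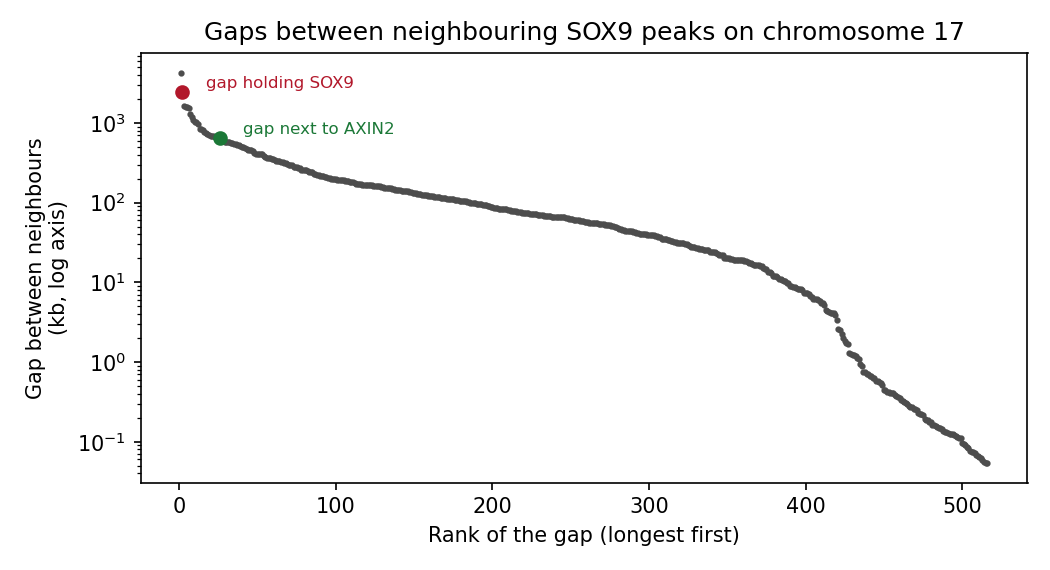
Length of the 516 gaps between neighbouring SOX9 peaks on chromosome 17 (kb, log axis) by rank, longest first. The gap holding SOX9 is the second point at 2.42 Mb, the gap left of the AXIN2 pair (641 kb) ranks 26, and the curve drops steeply below 1 kb at its right end.

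Chromosome 17 had 23 clusters with 87 peaks (16.8%, 13.7 to 20.3%), against 12.4% of the list and 12.2% of the peaks on chromosome 19. The interval treats peaks as independent, which those of a cluster are not. Of the clusters, 13 held exactly 3 peaks. In distal 17q25, which held 19.1% of the peaks of the chromosome, there were 9. The allowed gap is a fixed distance, so a denser segment gives more clusters for its number of peaks by construction. The largest cluster was at chr17:76975049-76988860, with 7 peaks over 13.8 kb and a highest score of 32.1. The next held 6 peaks, at chr17:75419894-75432782, with scores up to 17.2. Clusters of 5 were found at chr17:32367366-32380777, chr17:44927226-44930238 and chr17:77573934-77589175, with highest scores of 17.6, 13.2 and 164. Of the 23 clusters, 6 contained any of the 1007 highest-scoring peaks. That set held 79 of the 517 single peaks (15.3%) and 13.3% of the list, and a count of clusters cannot be set directly against a share of peaks. Merging peaks within 500 bp left 10 clusters. Keeping the 248 peaks at or above the median score left 3, but a shorter list holds fewer clusters by construction.

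Input chromatin gave 23 peaks on the chromosome. They lay from 21 to 23 Mb (11 peaks), from 42 to 43 Mb (7), from 38 to 39 Mb (3), and singly at 28 and 30 Mb. Of the 23 input peaks, 4 overlapped a SOX9 peak, while SOX9 peaks covered 0.353% of the chromosome up to its last peak. Whether this overlap exceeds that of random placement was not tested. SOX9 peaks overlapping an input peak by at least 1 bp numbered 4 (0.774%, 0.211 to 1.97%), against 0.53% of the list. They were at chr17:28173550-28174139 (score 26.5), chr17:30502099-30502638 (score 17.5), chr17:38755840-38756257 (score 3.71) and chr17:38821383-38822091 (score 17.5), and none was among the 1007 highest-scoring. No input peak lay in the first 3 Mb, next to AXIN2 or SOX9, or in distal 17q25. The sources used here do not say whether input was subtracted in calling the SOX9 peaks, a step that lowers overlap by construction.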

How the data were processed

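The SOX9 ChIP and the input library each had 1 deposited peak list, without header, giving the position, name and score of each peak. The measure behind the score deposited by the authors is not stated. Genome build hg18 and CASAVA 1.8.2 are named in the submitters' processing notes. For the aligner and the peak caller, names were not given in the sources used here. Peak names carry the replicate number 2, and other replicates were not analysed here.

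Starts were converted to 1-based positions. Peaks were assigned by centre to 1 Mb windows from position 0. Density was taken from the chromosome start to the last peak. Shares have exact Clopper-Pearson 95% intervals, counts exact Poisson 95% intervals. Counting was checked on simulated data. No hg18 genome or annotation was used, so sequences and nearby genes were not analysed here. GRCh38.p14 RefSeq served only for gene order and gene length. The peaks named were the 10 highest-scoring, the 3 widest, those overlapping input, those around SOX9 and AXIN2, the 3 highest-scoring of distal 17q25, and the 3 largest clusters with ties. The segments, the cluster between AXIN2 and SOX9 and the windows at 4, 8 and 43 Mb were singled out after their values were seen. The set and all lists were chosen with earlier results of these data known. Settings varied were score and width filters, merging, window offset, region bounds, overlap rule and cluster gap. The software was matplotlib 3.10.9, scipy 1.17.1, pandas 2.3.3 and numpy 2.4.6 under Python 3.11.15.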

Additional observations from a re-analysis of the deposited data

How the results depend on the processing

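When 45 values were computed again under other settings, 33 kept close to the main value, meaning inside its 95% interval or, for counts, lengths and ratios, at most 1.5 times apart. The number of empty windows, 9 against 6 when windows started at 0.5 Mb, lay exactly at that limit. The gap around SOX9 was 2.42 Mb under every filter run, and the density ratio of distal 17q25 ran from 2.27 to 3.84. Keeping only peaks at or above the median score, which left 248 on the chromosome, gave 14 empty windows, 0 peaks from 60 to 62 Mb, 2 peaks from 66 to 69 Mb, 3 clusters, 14.9% of the peaks in distal 17q25 and a median width of 582.5 bp. Such a filter shortens the list by construction. Within 1 Mb on each side of SOX9 there were 2 peaks. Starting distal 17q25 at 75 Mb gave 15.7%. Clusters numbered 15 with gaps of at most 5 kb and 10 after merging within 500 bp. Chromosome 17 held 7.85% of the 1007 highest-scoring peaks, against 6.85% of the list, and 5.61% of the list without distal 17q25, an alternative chosen after seeing the data. The read depth is unknown, so no limit of detection can be set. No paired analysis was possible because each group has 1 library, and no replicate could be left out.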

Other observations

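Scores repeated across peaks. The 517 peaks had 315 distinct scores, and the values 3.11 and 3.99 were each shared by 18 peaks and 4.92 by 17, with median widths of 275.5, 263 and 327 bp. The whole list had 2022 distinct scores among 7547 peaks, and chromosome 19 had 269 among 534.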
